A study of Mus musculus with 30 samples.

Results

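Collagen genes were followed in non-tumour tissue of the mouse colon across colitis and tumour development. The members were every gene of the counts table whose symbol matched the collagen pattern (Col, a type number, a, a chain number), which gave 44 of the 46078 genes. Of these, 31 of 44 passed the filter on low counts and were tested among 16261 genes. The other 13 (Col2a1, Col11a1, Col24a1, Col4a3, Col4a4, Col6a6, Col8a2, Col10a1, Col9a1, Col19a1, Col22a1, Col17a1 and Col26a1) had too few counts to test. Col19a1 had 0 counts in all 30 libraries, and Col17a1, the transmembrane collagen that ties basal epithelial cells to the basement membrane, had a median of 4 counts per library.

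RNA was sequenced from the scraped inner layer of the colon of wild-type C57BL/6J mice in 6 groups of 5, with 1 library per mouse. Females and males were treated with vehicle, or with AOM/DSS and killed at 9 or at 15 weeks. By the study's account all mice had tumours at 15 weeks, and the tissue sequenced was not tumour. AOM (azoxymethane) is a carcinogen, injected once into the peritoneum at 10 mg/kg, and DSS (dextran sulfate sodium) is an irritant that damages the epithelium, given with the drinking water at 2.5% over 3 rounds. The vehicle groups were taken at 9 weeks only, so treatment and time cannot be told apart in the comparisons of 15 weeks with vehicle, and both time points share the same 10 vehicle libraries.

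Collagens are triple-helical proteins of the extracellular matrix. The fibrillar types I, III and V form the cables that give the submucosa its strength, type IV forms the sheet of the basement membrane under the epithelium and around vessels, and type VI forms beaded filaments that link the basement membrane to the stroma. Types XV and XVIII sit in basement membranes and carry heparan or chondroitin sulfate chains, the fibril-associated collagens with interrupted helices (FACIT) decorate the surface of fibrils, and type VIII forms short-chain networks around vessels. In the colon most of these chains are made by fibroblasts, smooth muscle, pericytes and endothelium, so their level in a scrape of the epithelium also depends on the stromal cells that came with it. In bulk RNA, fewer cells of a type and less RNA per cell cannot be told apart.

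The start regions of the chains on which the results turn are shown to place them in the genome and to show how differently they are built. RefSeq windows of 300 bases (250 before the start and 50 after it, GRCm38.p6) were available for 35 of the 44 genes, 26 of them tested, and the last 120 bases before the RefSeq start are printed 5′ to 3′ on the gene's strand. Capitals mark matches to the TATA box letters TATAAA, the box letters CCAAT or the GC box letters GGGCGG, searched on both strands, where the GC box reads CCGCCC on the other strand. Col3a1 (chr1:45311418-45311537, plus strand) holds the main fibrillar chain measured here, Col16a1 (chr4:130047720-130047839, plus strand) and Col8a1 (chr16:57754738-57754857, minus strand) the chains lower at 9 weeks, and Col18a1 (chr10:77166531-77166650, minus strand, from a RefSeq start 18 bases inside the gene as annotated for the counts) the chain higher at 9 weeks. The last line is the 22 bases (chr8:11312805-11312826, plus strand) that hold both starts of the head-to-head pair Col4a1 and Col4a2, which lie 21 bases apart.
Col3a1: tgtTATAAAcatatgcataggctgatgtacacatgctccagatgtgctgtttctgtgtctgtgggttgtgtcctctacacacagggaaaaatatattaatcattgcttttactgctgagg
Col18a1: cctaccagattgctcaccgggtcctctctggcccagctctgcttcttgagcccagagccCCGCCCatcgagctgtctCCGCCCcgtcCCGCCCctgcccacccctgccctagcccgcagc
Col16a1: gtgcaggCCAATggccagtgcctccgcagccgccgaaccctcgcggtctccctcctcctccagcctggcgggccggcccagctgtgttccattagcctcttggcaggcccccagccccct
Col8a1: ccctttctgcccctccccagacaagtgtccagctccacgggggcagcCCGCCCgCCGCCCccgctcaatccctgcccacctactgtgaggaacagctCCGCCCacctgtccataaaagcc
Col4a1 and Col4a2: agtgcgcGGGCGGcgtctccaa
Over the whole windows, GGGCGG was found for 22 of 35 collagen genes and in 35.7% of all 32851 windows, CCAAT for 12 of 35 and in 37.4%, and TATAAA for 5 of 35 and in 13.6%. A match is a description of the letters and not of a bound site.

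The 30 libraries held 9265804 to 30806392 counts on genes, of which 698 to 45955 (median 4599) fell on collagen genes. Epithelial markers dominated every library, with a list of 12 colon epithelial genes summing to 5664 to 9935 FPKM (fragments per kilobase of transcript, scaled to library size), against 31.4 to 510 FPKM for a list of 14 fibroblast genes that holds no collagen. Male vehicle replicate 1 stood apart. It held the highest sums of fibroblast (510 FPKM), smooth muscle (2050 FPKM, next highest 85.7) and squamous epithelial genes (91.0 FPKM, next highest 2.32), as well as of collagen. The main counts of chains, marker genes and pathway genes below are also given without it.

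The summed level of all collagen genes was widest in vehicle-treated mice and lowest at 15 weeks. It was 38.7, 11.6, 10.3, 18.5 and 13.4 FPKM in the 5 vehicle females, and 220, 31.5, 22.1, 31.2 and 82.0 FPKM in the 5 vehicle males. At 9 weeks it was 43.8, 59.1, 35.4, 46.5 and 9.74 FPKM in females and 65.2, 28.0, 42.8, 26.1 and 45.6 FPKM in males. At 15 weeks it was 6.46, 11.1, 18.4, 9.89 and 24.6 FPKM in females and 16.6, 13.5, 4.56, 5.59 and 28.2 FPKM in males. Across conditions the medians of 10 were 26.6 FPKM in vehicle, 43.3 at 9 weeks and 12.3 at 15 weeks, and the ranges of the conditions overlapped. Median summed fibroblast markers moved in the same directions, at 96.9, 105 and 69.9 FPKM, and this sum changed proportionally less. Gene by gene the fibroblast markers did not fall less than the chains. At 15 weeks against vehicle the 13 tested markers had a median log2 fold change of -1.59, and the collagen chains one of -1.06. Median leukocyte markers were at 32.0, 90.8 and 29.8 FPKM. The part of stromal content in these totals was examined with the fibroblast score described further on.

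**Figure D1:**
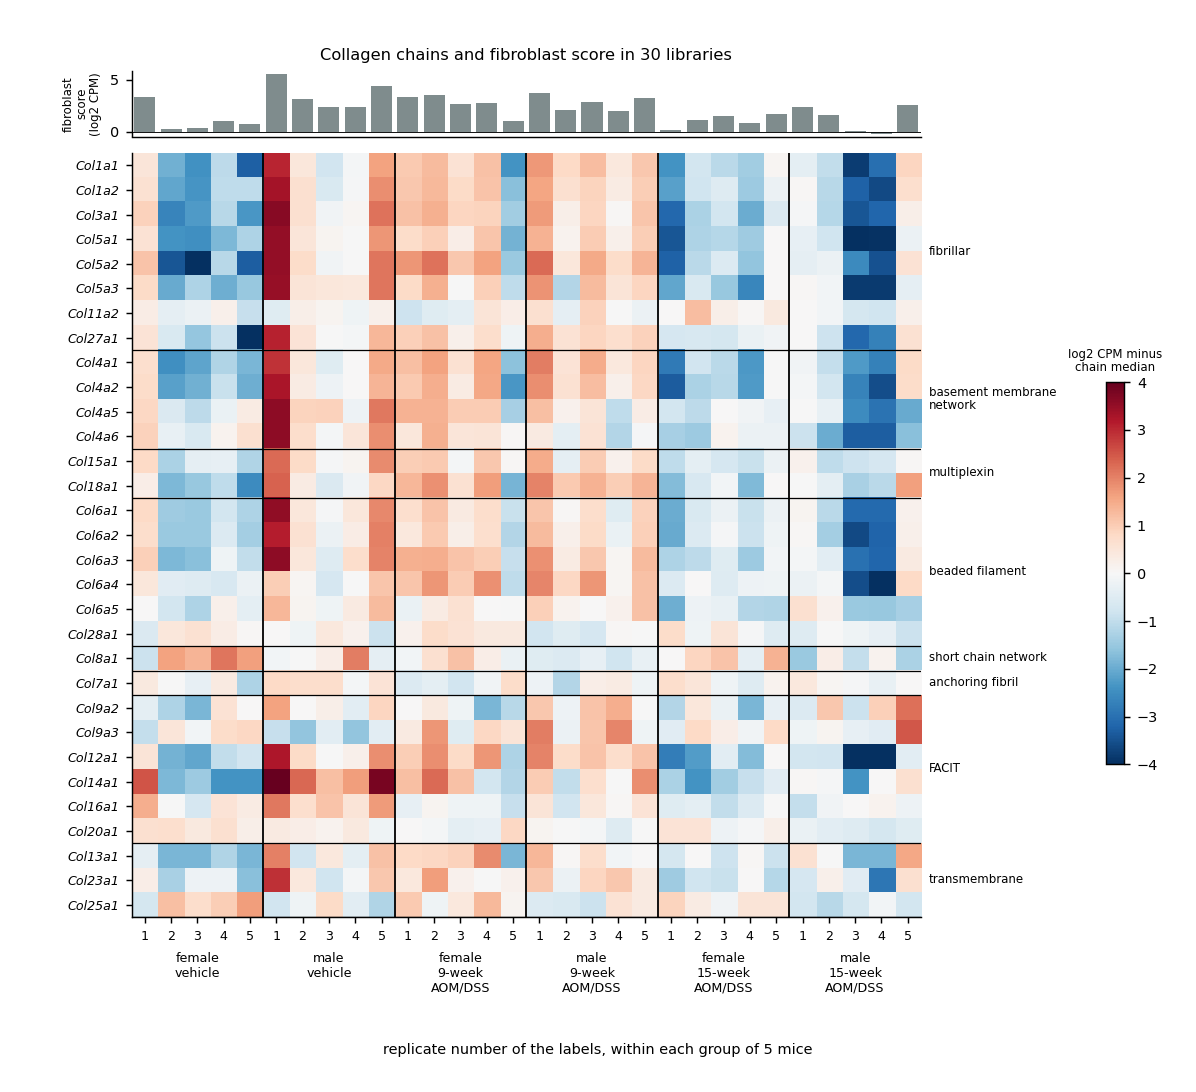
Each cell shows a collagen chain's log2 CPM minus that chain's median over 30 libraries (colour scale from -4 to 4), with libraries ordered by group and replicate and chains by structural class, under bars of the fibroblast score (mean log2 CPM of non-collagen fibroblast genes). Most fibrillar, type IV and type VI chains are high in male vehicle replicate 1 and low in male 15-week replicates 3 and 4, as the fibroblast score is, whereas Col8a1, Col20a1, Col28a1 and Col25a1 do not follow it.

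The make-up of the collagen message also differed between conditions. Fibrillar chains made a median of 34.4% of the summed collagen FPKM in vehicle, 47.0% at 9 weeks and 31.6% at 15 weeks. Type IV chains made 9.61%, 14.0% and 8.38%, and the multiplexins Col15a1 and Col18a1 3.59%, 6.32% and 4.95%. The beaded filament class, mostly type VI, kept 19.8%, 18.7% and 19.8%. The short-chain class, nearly all Col8a1, made 13.3%, 3.24% and 13.8%, and the FACIT class 17.4%, 9.05% and 18.2%. Ranges over 10 libraries were wide, for example 15.8% to 54.0% for fibrillar chains in vehicle and 0.907% to 34.5% for the short-chain class in vehicle. These shares are descriptions without a test.

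After 9 weeks of AOM/DSS, averaged over the sexes, 1 chain rose (Col18a1) and 2 fell (Col8a1 and Col16a1). A differentially expressed gene (DEG) was called at an edgeR adjusted p under 0.05, a log2 fold change beyond 0.4 and a mean of at least 1 FPKM in 1 of the groups compared. The calls were 1 up and 2 down of 31, beside 5.65% of all tested genes called up and 2.87% called down. The median log2 fold change of the chains was 0.21, against -0.02 over all genes tested, with 20 above 0 and 11 below. Without male vehicle replicate 1 the calls were again 1 up and 2 down, beside 5.62% and 2.67% of all genes. The median of the chains was then 0.64, with 23 above 0 and 8 below. At an unadjusted p under 0.05, 10 were up and 3 down, where 4 and 3 were with all libraries.

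Col18a1 (ENSMUSG00000001435, chr10:77052178-77166548) encodes the multiplexin from which endostatin is cleaved. Its level was 0.672, 0.140, 0.161, 0.230 and 0 FPKM in vehicle females and 4.22, 0.792, 0.347, 0.490 and 1.15 FPKM in vehicle males. At 9 weeks it was 1.72, 2.56, 1.07, 2.22 and 0.119 FPKM in females and 2.81, 1.12, 1.79, 1.42 and 1.89 FPKM in males. The value of 0 FPKM came from female vehicle replicate 5, the library with the fewest counts (9265804). Every library held at least 7 counts of Col18a1. Without female 9-week replicate 5, the 9-week libraries lay above 8 of the 10 vehicle libraries, and only male vehicle replicates 1 and 5 reached into their range. The log2 fold change was 1.29 ± 0.44 (SE, edgeR adjusted p = 0.0465). This call was held in 11 of 30 fits that each left out 1 library, with a log2 fold change of 1.17 to 1.67 and an adjusted p of 0.00768 to 0.0871. It was lost without any 1 vehicle library except the replicates numbered 1, any 1 of the 9-week libraries except female replicates 3 and 5, and female 15-week replicate 3 or male 15-week replicate 1 or 2. Without female vehicle replicate 1, a second chain was called up.

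Col16a1 (ENSMUSG00000040690, chr4:130047840-130099283), a FACIT made by fibroblasts and smooth muscle, was 4.66, 1.30, 0.813, 2.20 and 1.91 FPKM in vehicle females and 8.09, 2.36, 3.60, 2.40 and 5.31 FPKM in vehicle males. At 9 weeks it was 1.29, 1.86, 1.27, 1.27 and 0.659 FPKM in females and 2.45, 0.876, 2.26, 1.74 and 2.38 FPKM in males. At 15 weeks it was 0.760, 0.745, 0.793, 0.946 and 1.77 FPKM in females and 0.590, 1.49, 1.20, 1.36 and 1.14 FPKM in males. The 5 males at 15 weeks lay below all 5 vehicle males, while the other groups overlapped with vehicle. Its log2 fold change was -0.94 ± 0.23 at 9 weeks (adjusted p = 0.00533) and -1.25 ± 0.23 at 15 weeks (adjusted p = 0.00109). Both calls were held in 30 of 30 fits without 1 library and in all 10 other settings tried. No other collagen call averaged over the sexes had that record.

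Col8a1 (ENSMUSG00000068196, chr16:57624258-57754737), the short-chain network collagen, was 0.744, 3.99, 3.18, 5.47 and 4.21 FPKM in vehicle females and 1.37, 1.32, 1.63, 5.99 and 1.16 FPKM in vehicle males. At 9 weeks it was 1.36, 2.31, 3.17, 1.74 and 0.919 FPKM in females and 1.02, 0.949, 1.11, 0.770 and 1.19 FPKM in males. Of the vehicle libraries 5 (4 females and male replicate 4) lay above 3.17 FPKM and the other 5 at or below 1.63 FPKM, and no 9-week library exceeded 3.17 FPKM. The log2 fold change was -1.10 ± 0.34 (adjusted p = 0.0241). It was -0.94 at 15 weeks (adjusted p = 0.0525, not called). Without male vehicle replicate 4 or female vehicle replicate 4 the 9-week call was lost, and the log2 fold change over all fits without 1 library ran from -1.23 to -0.73.

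None of the type I, III, IV, V or VI chains was called at 9 weeks by edgeR, and at an unadjusted p under 0.05 only the type VI chain Col6a4 was higher (1.18, adjusted p = 0.0671). Col3a1, the type III chain and the highest collagen of the series, was 9.57, 0.765, 0.957, 2.13 and 0.982 FPKM in vehicle females and 69.2, 7.56, 4.43, 5.61 and 24.5 FPKM in vehicle males. At 9 weeks it was 11.9, 14.5, 9.16, 9.60 and 1.59 FPKM in females and 16.7, 6.21, 9.15, 5.28 and 11.3 FPKM in males. In females 4 of 5 libraries at 9 weeks lay near or above the highest vehicle female, whereas the male groups overlapped in full. Col1a1 and Col4a1 had log2 fold changes of 0.69 ± 0.53 (adjusted p = 0.421) and 0.84 ± 0.50 (adjusted p = 0.274). Col6a1 was at -0.16 and Col6a2 at -0.05. Col9a3, a cartilage-type FACIT chain, passed the test (1.45 ± 0.43, adjusted p = 0.0200), but its median level was only 0.122 FPKM in vehicle and 0.439 FPKM at 9 weeks, under the 1 FPKM minimum.

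**Figure D2:**
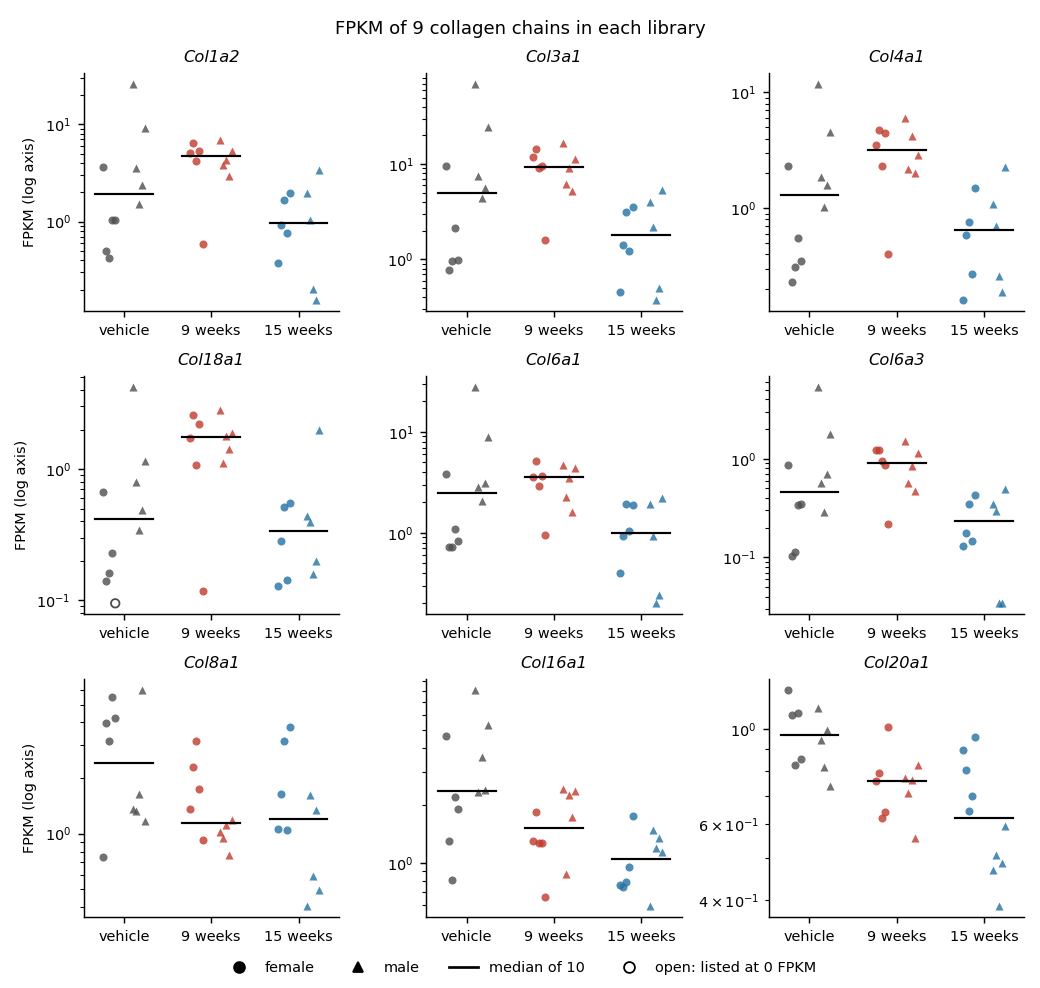
FPKM on a log axis for 9 collagen chains in each library, with circles for females, triangles for males, a line at the median of 10 libraries per condition and an open symbol where FPKM was 0. Col18a1 has medians of 0.419, 1.76 and 0.337 FPKM in vehicle, 9 weeks and 15 weeks, Col16a1 steps from 2.38 to 1.52 and 1.04 FPKM, and the vehicle libraries are the widest in most panels.

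After 15 weeks, averaged over the sexes, 7 of 31 chains fell and 0 rose in the edgeR test (1 chain rose at an unadjusted p under 0.05 and 20 fell, and DESeq2 called 0 up), beside 4.25% of all tested genes called down and 3.54% called up. The median log2 fold change of the chains was -1.06, with 27 below 0, and all genes tested had a median of -0.03. The calls were the type III chain Col3a1 (-1.70 ± 0.55, adjusted p = 0.0333), the 3 main type VI chains Col6a1 (-1.45 ± 0.46, adjusted p = 0.0320), Col6a2 (-1.32 ± 0.46, adjusted p = 0.0480) and Col6a3 (-1.54 ± 0.49, adjusted p = 0.0321), the multiplexin Col15a1 (-1.03 ± 0.31, adjusted p = 0.0262), and the FACITs Col16a1 and Col20a1 (-0.50 ± 0.14, adjusted p = 0.0199). By class, 1 of 8 fibrillar, 0 of 4 type IV, 1 of 2 multiplexin, 3 of 6 beaded filament, 0 of 1 short-chain, 0 of 1 anchoring, 2 of 6 FACIT and 0 of 3 transmembrane chains fell. At an unadjusted p under 0.05 all 4 type IV chains, the short-chain Col8a1 and 1 transmembrane chain were lower as well.

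In single libraries, Col3a1 at 15 weeks was 0.458, 1.41, 3.11, 1.23 and 3.51 FPKM in females and 4.03, 2.18, 0.372, 0.505 and 5.37 FPKM in males. Of the 15-week males, replicate 5 alone lay above the lowest vehicle male, and the female groups overlapped. Col6a1 was 3.85, 0.727, 0.717, 1.10 and 0.832 FPKM in vehicle females, 27.8, 2.85, 2.07, 3.10 and 8.82 FPKM in vehicle males, 0.402, 0.930, 1.93, 1.05 and 1.89 FPKM in 15-week females and 1.95, 0.940, 0.200, 0.242 and 2.20 FPKM in 15-week males. The pattern was that of Col3a1, with near separation in males and overlap in females. Col20a1, a small FACIT, was 1.12, 0.941, 0.815, 0.995 and 0.736 FPKM in vehicle males and 0.470, 0.508, 0.386, 0.487 and 0.595 FPKM in 15-week males, which did not overlap. In females it was 1.23, 1.08, 0.824, 1.09 and 0.851 FPKM in vehicle and 0.894, 0.802, 0.644, 0.699 and 0.961 FPKM at 15 weeks, which overlapped.

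A further 4 chains passed the adjusted p at 15 weeks without reaching 1 FPKM on average: Col14a1 (-3.12 ± 0.79, adjusted p = 0.0106), Col4a6 (-2.66 ± 0.50, adjusted p = 0.00109), Col4a5 (-1.89 ± 0.48, adjusted p = 0.0102) and Col12a1 (-1.72 ± 0.53, adjusted p = 0.0282). Col4a6, a chain of the smooth muscle and epithelial basement membrane network, had 11 to 291 counts per vehicle library (median 23.5) and 0 to 20 at 15 weeks (median 5.0). Col14a1, a FACIT of smooth muscle and fascia, had a median of 30.5 counts in vehicle and 4.5 at 15 weeks. With all libraries, smooth muscle markers fell with them, with 9 of 11 genes of that list called down at 15 weeks (median log2 fold change -2.84) and summed medians of 23.0 FPKM in vehicle and 14.6 FPKM at 15 weeks. That list rested on male vehicle replicate 1, at 2050 FPKM where the other 9 vehicle libraries summed to 10.5 to 50.9 FPKM. Without it 0 of 11 genes were called and their median was -0.94, and without female vehicle replicate 1 0 were called as well, at a median of -2.21. Without male vehicle replicate 1, Col4a6 was at -2.12 ± 0.42 (adjusted p = 0.00246), Col14a1 at -2.56 ± 0.75 (adjusted p = 0.0300) and Col4a5 at -1.43 ± 0.43 (adjusted p = 0.0329), while Col12a1 no longer passed (-1.29 ± 0.50, adjusted p = 0.0872). With a smooth muscle score as covariate (the mean log2 CPM of that list), Col4a6 was still at -1.66 ± 0.37 (adjusted p = 0.00746), while Col14a1 was at -1.29 ± 0.73 (adjusted p = 0.271).

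The 15-week calls depended on single libraries more than those of Col16a1. Leaving out male vehicle replicate 1 left 2 of the 7 chains called down, with a median log2 fold change of -0.75 over the chains. Leaving out female vehicle replicate 1, the vehicle female with the most fibroblast markers, also gave a count of 2. Of the 7 chains, only Col16a1 kept its call in that fit, so the other chain was newly called. The count was 3 without female 15-week replicate 1 or 2 and 4 without female 15-week replicate 4, and over all 30 such fits it ran from 2 to 10. Col20a1, whose mean in vehicle lay close to the 1 FPKM minimum, lost its call without female vehicle replicate 1, 2 or 4, although its adjusted p stayed at or below 0.0388. Chains of other classes that are given by rule were not called at 15 weeks. Col1a2, the partner of Col1a1 in type I collagen, was at -1.25 ± 0.51 (adjusted p = 0.0855), with medians of 1.94 FPKM in vehicle and 0.975 FPKM at 15 weeks, and Col4a2 at -1.31 ± 0.55 (adjusted p = 0.0949), with medians of 0.976 and 0.386 FPKM. The transmembrane chain Col23a1 was at -1.06 ± 0.48 (adjusted p = 0.117) and Col13a1 at 0.44 ± 0.66 (adjusted p = 0.665), both with medians under 0.1 FPKM in every condition.

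Between 9 and 15 weeks, 4 chains fell and 0 rose in the edgeR test (0 rose and 21 fell at an unadjusted p under 0.05, and DESeq2 called 0 up and 7 down), beside 2.0% of all tested genes called down and 0.424% called up. The median log2 fold change of the chains was -1.37, against -0.02 for all genes. The calls were Col3a1 (-1.94 ± 0.55, adjusted p = 0.0424), its neighbour Col5a2 (-2.18 ± 0.63, adjusted p = 0.0451), whose type V chain nucleates fibrils, Col4a1 (-1.91 ± 0.52, adjusted p = 0.0356) and Col18a1 (-1.51 ± 0.45, adjusted p = 0.0465). Col4a1 was 3.54, 4.76, 2.32, 4.47 and 0.403 FPKM in females and 6.08, 2.19, 4.20, 2.03 and 2.88 FPKM in males at 9 weeks. At 15 weeks it was 0.160, 0.586, 0.760, 0.269 and 1.49 FPKM in females and 1.08, 0.704, 0.257, 0.188 and 2.27 FPKM in males. Female 9-week replicate 5 lay among the 15-week libraries, male 15-week replicate 5 lay above 2 of the 9-week males (replicates 2 and 4), and the remaining libraries of the times did not overlap. Other chains passed the adjusted p under 1 FPKM, led by Col12a1 (-2.41 ± 0.54, adjusted p = 0.0171), a FACIT of dense connective tissue with medians of 0.673 FPKM at 9 weeks and 0.118 FPKM at 15 weeks.

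These 4 calls lay close to the threshold. No chain was called without any 1 of 11 libraries (female 9-week replicates 1, 2 and 4, male 9-week replicates 1 and 3, female 15-week replicates 1, 2 and 4, and male 15-week replicates 1, 3 and 4). The count was 1 without female 9-week replicate 3, male 9-week replicate 2 or 5, female 15-week replicate 3 or male 15-week replicate 2, and 2 without female vehicle replicate 4 or male vehicle replicate 5. It was 7 without female vehicle replicate 1, male 9-week replicate 4 or male 15-week replicate 5, 8 without male vehicle replicate 1, and 10 without female 9-week replicate 5. The directions were the same in every one of these fits for the 4 chains.

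Within the sexes the calls came from males. At 15 weeks 8 chains fell and 0 rose in males (22 and 1 at an unadjusted p under 0.05), beside 4.55% of all genes called down and 4.37% called up. They were the fibrillar chains Col3a1 (-2.87 ± 0.81), Col5a1 (-3.01 ± 0.82) and Col1a2 (-2.36 ± 0.74), the type VI chains Col6a1 (-2.72 ± 0.68), Col6a2 (-2.59 ± 0.68) and Col6a3 (-2.61 ± 0.71), Col15a1 (-1.68 ± 0.44) and Col16a1 (-1.54 ± 0.33), with edgeR adjusted p values from 0.00435 to 0.0328. Without male vehicle replicate 1 the count was 1, with a median log2 fold change over the chains of -1.17 in place of -1.94, and without male vehicle replicate 4 it was 13. With the fibroblast score described below as covariate, 0 chains fell and 1 rose (6 and 3 at an unadjusted p under 0.05, median -0.20), and with the smooth muscle score 0 fell and 0 rose (6 and 1 at an unadjusted p under 0.05, median -0.44). A fit of the compared libraries alone called 1 down, and DESeq2 12. At 9 weeks Col16a1 alone fell in males (-1.12 ± 0.33, adjusted p = 0.0282) and 0 chains rose (7 and 1 at an unadjusted p under 0.05), beside 2.88% of genes down and 4.42% up. That count was 0 without male vehicle replicate 1 or 5 or male 9-week replicate 2 or 4, and 2 without male vehicle replicate 3 or 4.

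In females 0 chains were called at 9 weeks by edgeR, with 11 up and 3 down at an unadjusted p under 0.05 and 1 up by DESeq2, beside 2.42% of all genes called up and 0.48% down. The median log2 fold change of the chains was 1.04, and Col18a1 was at 2.13 ± 0.65 (adjusted p = 0.0598). Without female vehicle replicate 1 the count was 4 up, and without male vehicle replicate 1, female 9-week replicate 5 or male 15-week replicate 5 it was 1 up. At 15 weeks 0 chains were called in females, with 1 down at an unadjusted p under 0.05 and 0 by DESeq2, beside 0.0861% of genes up and 0.0123% down. Col16a1 was at -0.96 ± 0.33 (adjusted p = 0.297).

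The sexes were then compared directly. In vehicle-treated mice the chains were higher in males by a median log2 difference of 2.14, yet 0 of 31 were called by edgeR (24 at an unadjusted p under 0.05, 22 of them higher in males), beside 0.178% of all genes in edgeR. DESeq2 called 12 chains, and its share of all genes is not given. Col3a1 had the values listed for each vehicle mouse above and a log2 difference of 2.78 ± 0.80 (edgeR adjusted p = 0.0733). Median summed fibroblast markers were 47.2 FPKM in vehicle females and 138.9 FPKM in vehicle males, and how much of the chains' sex difference goes with them is given by the model with the score below. Without female vehicle replicate 1 the edgeR count was 13, without male vehicle replicate 3 it was 8, and without male vehicle replicate 4 it was 7. Without male vehicle replicate 1 it was 0, with a median of 1.22. The shares of all genes in these fits are not given. At 9 weeks 0 chains differed between the sexes (1 at an unadjusted p under 0.05, 0 by DESeq2, 0.0492% of all genes called), and at 15 weeks 0 differed (6 at an unadjusted p under 0.05, 0 by DESeq2, 0.184% of genes). The difference between the male and the female response was called for 0 chains at 9 weeks (17 at an unadjusted p under 0.05, median -2.01) and for 0 at 15 weeks (14, median -1.74), beside 0.0% of all genes at both times, and DESeq2 also called 0. These medians depended on the vehicle libraries and the score. They were -1.11 and -0.91 without male vehicle replicate 1 (3 and 3 at an unadjusted p under 0.05). Without female vehicle replicate 1 they were -2.74 and -2.79 (22 and 21). With the fibroblast score described below they were 0.27 and -0.26 (3 and 2), and 0 chains were called in any of these fits. A response called in males and not in females is therefore not shown to differ between the sexes.

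**Figure D3:**
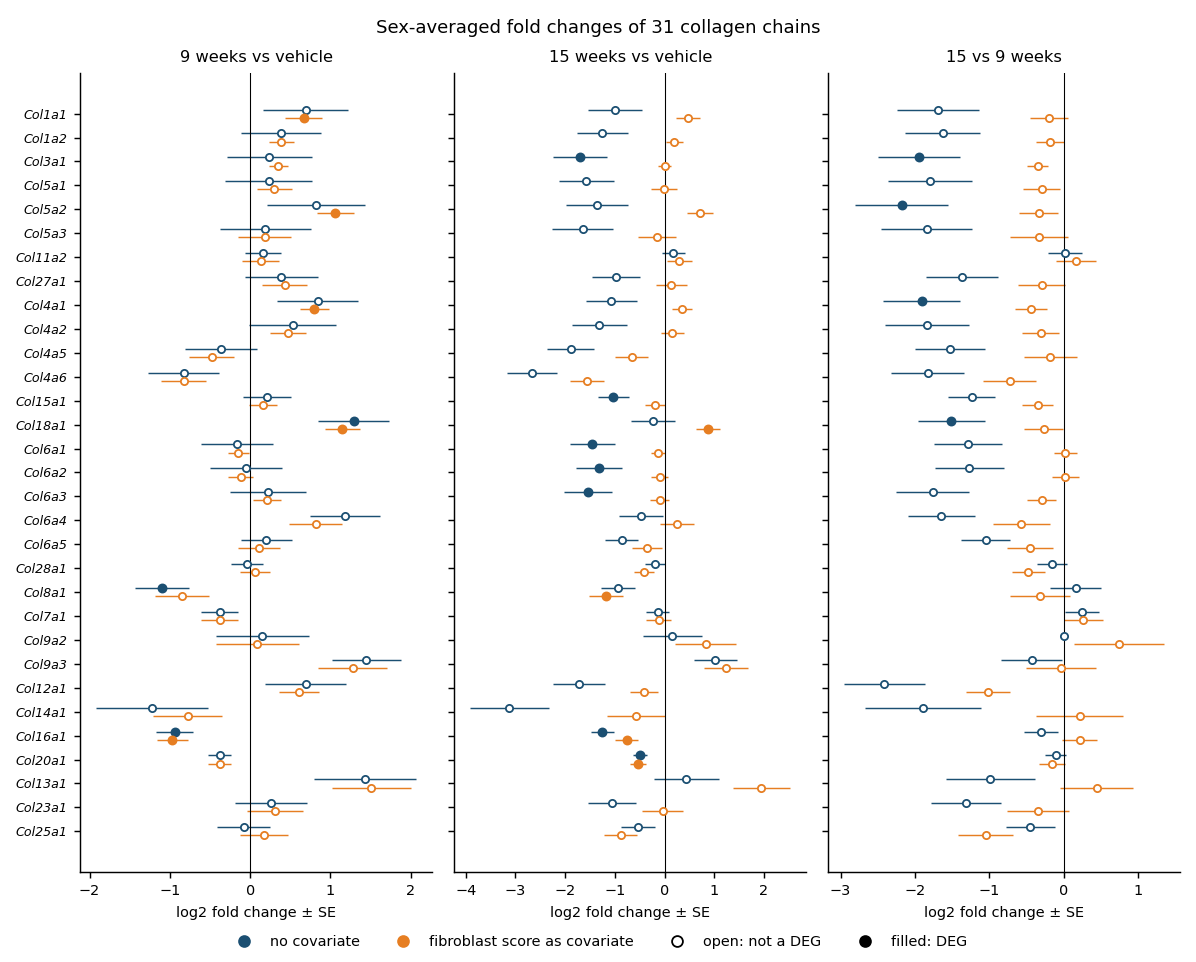
Log2 fold changes ± SE of 31 collagen chains, averaged over the sexes, for 9 weeks and 15 weeks against vehicle and 15 against 9 weeks, without a covariate (blue) and with the fibroblast score as covariate (orange), filled where the chain was a DEG (Col9a2 has no bar where its SE could not be estimated). Without the covariate 27 of 31 chains lie below 0 at 15 weeks, and with it Col3a1 and the type VI chains lie at or near 0 while Col16a1 and Col20a1 remain filled.

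The link to stromal content was measured with a fibroblast score, the mean log2 CPM (counts scaled to library size) of 13 tested fibroblast genes that are not collagens, such as the small proteoglycans Dcn, Lum and Bgn and the receptor Pdgfra. Its median was 2.39 in vehicle (0.25 to 5.56), 2.81 at 9 weeks (1.03 to 3.68) and 1.32 at 15 weeks (-0.18 to 2.61). Over 30 libraries, which share their depth and normalization between both measures, 19 of 31 chains correlated with the score above Pearson r = 0.8 and 13 above 0.9, with a median r of 0.846. In a permutation test, 25 chains had an adjusted p under 0.05 over 310 relations, 24 of them positive. After the group means were taken out, the median r was 0.813, and within vehicle, 9-week and 15-week libraries alone it was 0.934, 0.831 and 0.765. With the smooth muscle score in place of that of fibroblasts, the median r was 0.773 over all libraries and 0.416 within the 9-week libraries.

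Above r = 0.8 lay 7 of 8 fibrillar chains (not Col11a2), 3 of 4 type IV chains (not Col4a6), both multiplexins, 3 of 6 beaded filament chains, 2 of 6 FACITs and 2 of 3 transmembrane chains. Pearson's r was 0.983 for Col3a1, 0.961 for Col6a1, 0.958 for Col1a2, 0.949 for Col4a1 and 0.926 for Col1a1. All 5 had a permutation adjusted p of 4.56e-05 from the smallest p that 100000 permutations can give (1e-05). Spearman's rho was 0.983 for Col3a1, 0.980 for Col6a1, 0.947 for Col1a2, 0.955 for Col4a1 and 0.936 for Col1a1. For Col1a1, the lowest of the 5, r was 0.906 without male vehicle replicate 1 and male 15-week replicate 4, the libraries farthest from the median score. For Col3a1 r was 0.993 within vehicle, 0.980 within 9 weeks and 0.978 within 15 weeks. Col16a1 was looser at r = 0.610 (permutation adjusted p = 0.000745) and rho = 0.481 (adjusted p = 0.0141), with r = 0.916 within vehicle, 0.730 within 9 weeks and -0.384 within 15 weeks. Without the same 2 libraries it was 0.529. The relation of Col16a1 to the score was positive in vehicle and 9-week libraries and not at 15 weeks.

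The chains that did not follow the score were Col8a1 (r = -0.305, rho = -0.304, permutation adjusted p = 0.137), Col20a1 (r = -0.058, rho = -0.068, adjusted p = 0.786), Col7a1, the anchoring fibril chain made by basal epithelial cells and fibroblasts (r = 0.190), Col11a2 (r = 0.139), Col9a3 (r = -0.029) and Col28a1, a beaded filament chain of glia (r = -0.310, adjusted p = 0.129). Col25a1, a transmembrane chain of neurons, was the only chain with a negative r and an adjusted p under 0.05 (r = -0.421, rho = -0.407, adjusted p = 0.0331, and r = -0.416 without the 2 libraries). Within vehicle libraries Col8a1 and Col25a1 ran against the score, at r = -0.760 and r = -0.870. Those libraries pool the sexes, whose median scores were 0.77 in females and 3.11 in males. The values within vehicle can therefore mix a sex difference with a relation to the score. Col7a1 had medians of 0.248, 0.219 and 0.196 FPKM and no call in any comparison, and its lowest unadjusted p was in males at 9 weeks (-0.68 ± 0.32, unadjusted p = 0.0459, edgeR adjusted p = 0.187).

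**Figure D4:**
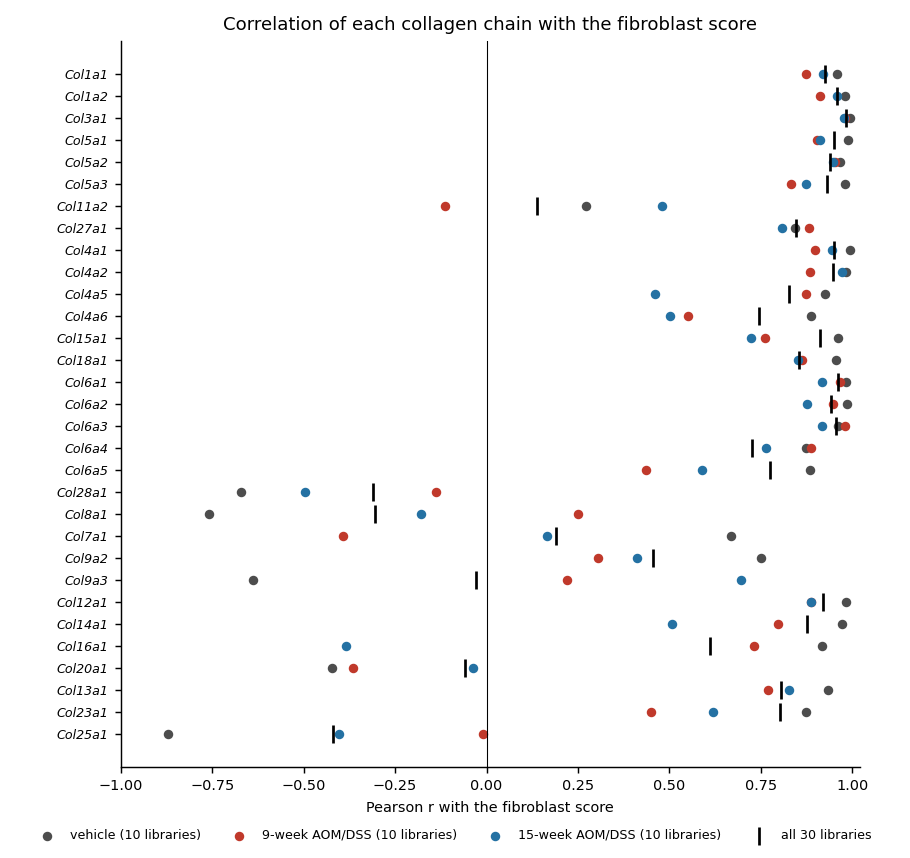
Pearson's r between each of 31 collagen chains and the fibroblast score, over all 30 libraries (vertical bars) and within the 10 libraries of each condition (points). Chains of types I, III, IV, V and VI sit mostly to the right, with Col3a1 at 0.983 over all libraries, whereas Col16a1 spreads from 0.916 in vehicle to -0.384 at 15 weeks and Col8a1 lies at -0.305.

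**Figure D5:**
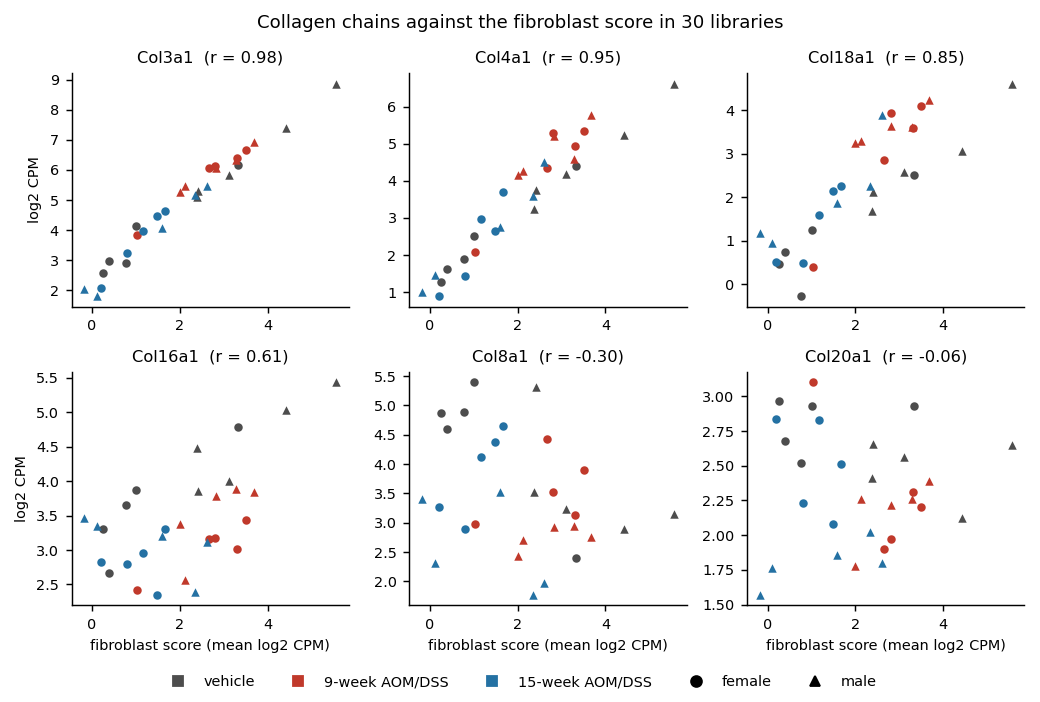
Log2 CPM of 6 collagen chains (y axis) against the fibroblast score (x axis, mean log2 CPM) in 30 libraries, coloured by condition, with circles for females and triangles for males. Col3a1 lies close to a single line for all conditions (r = 0.983), most 9-week libraries lie above vehicle libraries of like score for Col4a1 and Col18a1, and most AOM/DSS libraries lie below vehicle for Col16a1.

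With the fibroblast score as a covariate, the edgeR model compares libraries at equal score. The score is itself measured after treatment and differed between conditions, so these values describe the chains relative to the fibroblast genes and are not corrected levels. At 9 weeks 4 chains were called up and 1 down, beside 6.17% and 3.12% of all genes. They were Col18a1 (1.15 ± 0.22, adjusted p = 0.000534), Col5a2 (1.06 ± 0.23, adjusted p = 0.00157), Col4a1 (0.80 ± 0.18, adjusted p = 0.00236) and Col1a1 (0.67 ± 0.23, adjusted p = 0.0391), and Col16a1 (-0.97 ± 0.19, adjusted p = 0.000591). Col3a1 was at 0.35 ± 0.12, under the log2 fold change of 0.4 that a call requires. Col6a1 was at -0.15 ± 0.13 (adjusted p = 0.471), and Col8a1, at -0.85 ± 0.34 (adjusted p = 0.0823), was no longer called. In males alone 6 chains were up (Col18a1, Col5a2, Col1a1, Col4a1, Col1a2 and Col4a2) and 1 down (Col16a1). The share of all genes called in males with the score is not given, so these counts are not shown to be particular to collagens.

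At 15 weeks the same model called 1 chain up, Col18a1 (0.88 ± 0.24, adjusted p = 0.0235), and 3 down, Col16a1 (-0.76 ± 0.23, adjusted p = 0.0331), Col8a1 (-1.17 ± 0.34, adjusted p = 0.0312) and Col20a1 (-0.53 ± 0.16, adjusted p = 0.0353), beside 3.07% and 2.02% of all genes. Col3a1 was at -0.00 (adjusted p = 0.994) and Col6a1 at -0.13 (adjusted p = 0.567), where they had been -1.70 and -1.45 without the score. The median log2 fold change of the chains went from -1.06 to -0.10. Between 15 and 9 weeks 0 chains were called with the score in edgeR (6 fell at an unadjusted p under 0.05; no other tool was run with the score), beside 0.0% of all genes, and the median went from -1.37 to -0.30. In vehicle mice the median sex difference of the chains went from 2.14 to -0.18. With a smooth muscle score in its place, 3 chains were up and 2 down at 9 weeks and 1 was down at 15 weeks. The shares of all genes in that model are not given. The smooth muscle score was 8.47 in male vehicle replicate 1 and next highest at 4.3 in female 9-week replicate 3. A fit with that score and without male vehicle replicate 1 was not run.

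Ratios of chains within a library set chains side by side that were measured in the same stroma and at the same depth. They were compared between conditions as differences of log2 CPM, with a two-sided exact permutation test within the sexes (63504 reassignments, smallest possible p = 3.1e-05) and adjustment over 24 comparisons, a test chosen after the data were seen. Col4a1 over Col6a1, a basement membrane chain over an interstitial one, had median FPKM ratios of 0.502 in vehicle, 0.975 at 9 weeks and 0.690 at 15 weeks. The mean log2 ratio was -0.35 ± 0.29 (SD, n = 10) in vehicle and 0.57 ± 0.53 (n = 10) at 9 weeks, a difference of 0.92 (0.85 in females and 0.99 in males), with an exact permutation p = 0.000472 and adjusted p = 0.0113. This held in all 31 alternatives. Col18a1 over Col15a1 had median FPKM ratios of 0.686, 1.95 and 0.984, and its log2 ratio rose by 1.05 at 9 weeks, from -0.32 ± 0.44 to 0.73 ± 0.87 (exact permutation p = 0.00312, adjusted p = 0.0249). It missed the threshold without female vehicle replicate 3 or female 9-week replicate 1, 2 or 3, with adjusted p values up to 0.061.

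The type V chains also shifted against each other at 9 weeks, with Col5a2 over Col5a1 up by 0.99 on the log2 scale (exact permutation p = 0.00186, adjusted p = 0.0223). The difference was 1.54 in females and 0.44 in males, and it missed the threshold without female 9-week replicate 1, 2 or 3. Vehicle females 2, 3 and 5 had only 7, 3 and 3 counts of Col5a2, so the female ratio is imprecise. Col4a1 rose against Col4a2 by 0.30 (adjusted p = 0.0266) and Col6a1 dropped by 0.41 against Col6a3 (adjusted p = 0.0334, exact permutation tests). Both were held in 23 of 31 alternatives and lost without female vehicle replicate 2 or 3, male vehicle replicate 3, female 9-week replicate 1, 2 or 3, or male 9-week replicate 1 or 4. The ratio of the type I chains was close in all conditions, with Col1a2 over Col1a1 at medians of 2.40, 2.10 and 2.05 in FPKM and above 1 in 30 of 30 libraries, and a change of -0.32 at 9 weeks (exact permutation adjusted p = 0.297). Col6a1 over Col6a2 was 1.42, 1.37 and 1.40 and above 1 in 30 of 30 libraries, and Col3a1 over Col1a2 was 2.33, 2.17 and 1.81. At 15 weeks no ratio passed the threshold against vehicle with all libraries (exact permutation tests, lowest adjusted p = 0.0835). Col4a1 over Col4a2 was at 0.31 (adjusted p = 0.0835, and 0.0358 without male 15-week replicate 2), Col18a1 over Col15a1 at 0.64 (adjusted p = 0.0835, and 0.0471 without female 15-week replicate 4), and Col5a2 over Col5a1 at 0.79 (adjusted p = 0.0843, and 0.0451 or 0.0352 without female vehicle replicate 1 or 4).

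Tested chains with under 100000 bases between them in the genome formed 5 pairs, whose correlation over the 30 libraries is given as a description of libraries that share stroma and depth. Pearson's r of log2 CPM was 0.986 for the head-to-head pair Col4a1 and Col4a2, 0.992 for Col6a1 and Col6a2 on chromosome 10, 0.958 for Col3a1 and Col5a2 on chromosome 1, and 0.904 for the X-linked pair Col4a5 and Col4a6, but 0.593 for Col6a4 and Col6a5 on chromosome 9. Chains on different chromosomes reached the same range (Col1a1 with Col3a1, 0.959). Among all 16261 tested genes, those most alike to Col1a1 were Fstl1 (0.976), itself a gene of the fibroblast score, Eng (0.962), a gene of the endothelial list, and Col4a2 (0.960), those most alike to Col4a1 after Col4a2 were Sod3 (0.978), Olfml2b (0.977) and Sparc (0.977), and those most alike to Col6a1 after Col6a2 were Crispld2 (0.974), Tnc (0.970) and Postn (0.970). For Col18a1, chosen after its values were seen, they were Csf1 (0.956), Cp (0.954) and Serpina3n (0.950), and for Col16a1, chosen likewise, Atp7b (0.904), Slc46a1 (0.897) and Sun2 (0.894). Col8a1 and Col20a1 had looser companions, with highest r of 0.820 (Nrp2) and 0.797 (5031434O11Rik).

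Genes that fold, cleave, cross-link, bind and degrade collagen were followed together with 15 basement membrane partners and 10 inducers. These were 77 genes in all, of which 72 were tested. At 9 weeks 4 rose and 2 fell (5.56% and 2.78%, median log2 fold change 0.07), shares close to the 5.65% and 2.87% of all genes. Without male vehicle replicate 1, 5 of 73 rose and 2 fell at 9 weeks (median 0.35), beside 5.62% and 2.67% of all genes. At 15 weeks 0 rose and 9 fell (12.5%, median -0.54), where 3.54% and 4.25% of all genes did, and between 15 and 9 weeks 0 rose and 6 fell (8.33%, median -0.75), where 0.424% and 2.0% did. The 9 falls at 15 weeks were 5 basement membrane partners, 1 inducer, 2 receptors and 1 degrading enzyme. Without male vehicle replicate 1 the falls numbered 3 of 73 tested at 15 weeks (2.68% of all genes, list median -0.22) and 10 between the times (2.63% of all genes). Over all 30 fits without 1 library, added after the data were seen, they ran from 3 to 12 at 15 weeks and from 1 to 13 between the times. Between the times 1 or 2 fell when any 9-week library other than female replicate 5 or male replicate 4 was left out, or any of the 15-week females 1, 2 and 4 or males 3 and 4. Leaving out 15-week female 3 or male 1 or 2 gave 3, leaving out 15-week female 5 gave 10, and leaving out 9-week female 5 gave 13. Of the 4 genes that rose at 9 weeks, 3 were degrading enzymes (8 tested). The stromelysin Mmp10 went from a median of 0.00828 FPKM (highest 0.534) in vehicle to 2.19 FPKM (0.119 to 6.94), a log2 fold change of 6.05 ± 1.09 (adjusted p = 0.000274). Mmp3 was at 4.54 ± 0.89 (adjusted p = 0.000684) and the collagenase Mmp13, which cuts fibrillar collagen, at 3.85 ± 0.72 (adjusted p = 0.000375). The inducer Tgfb1 rose by 0.71 ± 0.20 (adjusted p = 0.0165), and the basement membrane partners Lamb2 (-0.86 ± 0.15, adjusted p = 0.000213) and Nid2 (-0.61 ± 0.17, adjusted p = 0.0117) fell. These 6 calls were held in all 30 fits without 1 library.

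At 15 weeks 5 of 15 basement membrane partners fell, among them the laminin chains Lamb1 (-1.45 ± 0.43, adjusted p = 0.0226) and Lama4 (-1.34 ± 0.47, adjusted p = 0.0475). The matricellular gene Postn fell furthest (-2.42 ± 0.59, adjusted p = 0.00847), followed by the collagen receptor Ddr2 (-1.85 ± 0.48, adjusted p = 0.0121). In vehicle Postn had a median of 4.35 FPKM and a highest value of 75.0 FPKM. Of 30 fits without 1 library, Postn, Lamb2 and Nid2 were called in 30, Lamb1 and Ddr2 in 29 and Lama4 in 11. Without male vehicle replicate 1 the calls were Lamb2, Nid2 and Postn (-1.80 ± 0.53, adjusted p = 0.0300), while Lamb1 (-1.02 ± 0.38, adjusted p = 0.0791), Lama4 (-0.86 ± 0.42, adjusted p = 0.173) and Ddr2 (-1.26 ± 0.41, adjusted p = 0.0463, under 1 FPKM) were not called. None of the 17 folding, 6 cleavage and 6 cross-linking genes tested was called by edgeR against vehicle at either time, although at 15 weeks 7 folding, 3 cleavage and 3 cross-linking genes fell and 2 folding genes rose at an unadjusted p under 0.05, and at 9 weeks 1 of each list rose and 1 folding gene fell. The median log2 fold changes of the cross-linking genes were 0.48 at 9 weeks and -1.05 at 15 weeks. Between 15 and 9 weeks Mmp3 (-3.55 ± 0.81, adjusted p = 0.0175), Postn (-2.13 ± 0.58, adjusted p = 0.0386), the type IV binding protein Sparc (-1.81 ± 0.52, adjusted p = 0.0437) and the collagen chaperone Serpinh1 (-1.78 ± 0.51, adjusted p = 0.0425) fell. Of these, Mmp3 was called in 30, Postn in 18, Serpinh1 in 15 and Sparc in 12 of 30 fits without 1 library. Stromal markers moved the same way, with 7 of 13 fibroblast and 2 of 10 endothelial genes down at 15 weeks, and 3 of 13 and 1 of 10 between 15 and 9 weeks. Without male vehicle replicate 1 these were 1 of 13 and 2 of 10, and 5 of 13 and 3 of 10. Over all fits without 1 library, fibroblast genes called down ran from 1 to 9 at 15 weeks and from 0 to 8 between the times. The part of stromal content in the changes of these pathway genes was not tested.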

How the data were processed

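The authors extracted RNA from the colon scrapes, made stranded poly(A) libraries, trimmed reads with Trim Galore, aligned them to GRCm38 (mm10) with STAR and tallied them per gene with featureCounts, which gave the deposited raw counts without normalization. FPKM, TPM and coverage per gene were deposited by the authors from StringTie, 1 file per library. FPKM gave the levels, with repeated lines of a gene added (11 to 20 per file), and TPM and coverage were not used. Versions of these tools and the strand setting of the counting are not given in the sources used here. Exons of Col3a1, Col20a1 and Col7a1 overlap another gene on the same strand, and those of Col4a2, Col5a1, Col6a4, Col9a3 and Col15a1 one on the opposite strand, so some of their counts may be uncertain.

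Counts were fitted with edgeR 4.0.16 (R 4.3.3): filterByExpr (16261 genes), TMM factors of 0.832 to 1.10, a quasi-likelihood model with 6 groups over 30 libraries, and Benjamini-Hochberg adjustment over all tested genes in each of 12 comparisons, after the fit was tested on simulated data. DESeq2 1.42.0, which the study used, was an alternative. Log2 CPM used a prior count of 2. Correlations used 100000 permutations (smallest p 1e-05). Alternatives were RLE factors, no count filter, the compared libraries only, no FPKM minimum, no fold threshold, a replicate block, fibroblast or smooth muscle scores as covariates, and each library left out. The fit without both male vehicle replicate 1 and female vehicle replicate 5, the ratio tests, and the marker and pathway lists without each library were added after seeing the data.

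The members and lists were chosen with earlier results of these data known. Values are given by rule for the most abundant chains of each class, every DEG and the smallest p of each class, and for at most 4 pathway DEGs per direction. Mice were separate animals. Within-group pairs of libraries (60) had Spearman correlations of 0.941 to 0.994, and none was a copy. Depth limits the low chains: reads are not deduplicated, and a median of 4599 counts per library on all collagens leaves most chains under 1 FPKM imprecise.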

Additional observations from a re-analysis of the deposited data

Results flagged for a closer look

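In 12 of 120 groups of 5 libraries, over 20 named chains, the highest or lowest library stood apart from the other 4 by Dixon's criterion, where chance gives about 1 in 20 groups. Of these, 7 were low values in female 9-week replicate 5, in log2 CPM with the group median in brackets. They were Col1a1 at 0.76 (4.22), Col1a2 at 2.42 (5.16), Col3a1 at 3.83 (6.12), Col5a1 at 0.28 (2.89), Col6a3 at 1.41 (3.49), Col6a4 at 0.21 (2.35) and Col13a1 at -3.62 (-0.97). The Col13a1 value is that of 0 counts, for a chain with a median of 5 counts per library. Female 9-week replicate 5 also had the lowest fibroblast score of the 9-week libraries (1.03). Col8a1 stood apart in female vehicle replicate 1, at 2.40 (4.87), and in male vehicle replicate 4, at 5.31 (3.23), in opposite directions. The remaining values were Col7a1 in male vehicle replicate 4 at 1.22 (2.01), Col20a1 in male 9-week replicate 4 at 1.78 (2.26) and Col23a1 in female 9-week replicate 2 at 0.95 (-0.56).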

How the results depend on the processing

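Of 599 values of 20 named chains in 3 comparisons under 10 other settings, 510 were on the same side of the threshold, 40 were no longer past it, 25 were newly past it and 24 changed sign, and of 1800 values without 1 library 1622 were the same and 10 changed sign. Counts of called chains moved as follows. Where no share of all genes stands beside a count, here or above, the count describes the chains alone and is not shown to be particular to them. Without the FPKM minimum they were 2 up at 9 weeks, 11 down at 15 weeks and 9 down between 15 and 9 weeks, and in males 1 up and 2 down at 9 weeks and 1 up and 15 down at 15 weeks, since fewer conditions were set. Without the count filter they were 0 up at 9 weeks and 1 down between 15 and 9 weeks. With the compared libraries only, 3 fell at 15 weeks and 7 between the times, and in males 0 at 9 weeks and 1 at 15 weeks. With the replicate block 3 fell at 15 weeks and 1 rose in females at 9 weeks. With the fibroblast score they were 4 up and 1 down at 9 weeks, 1 up and 3 down at 15 weeks, 0 between the times, 1 down in females at 9 weeks, 6 up in males at 9 weeks, and 1 up and 0 down in males at 15 weeks. With the smooth muscle score they were 3 up at 9 weeks, 1 down at 15 weeks, 0 between the times, 1 up and 0 down in males at 9 weeks and 0 down in males at 15 weeks. DESeq2 called 7 down between the times, 1 up in females at 9 weeks and 12 between the sexes in vehicle. Without 2 vehicle libraries, 2 fell at 15 weeks, 7 between the times, and 0 and 1 in males at 9 and 15 weeks. Without 1 library each the counts ran from 0 to 2 up and 1 to 3 down at 9 weeks, 2 to 10 down at 15 weeks, 0 to 10 down between the times, 0 to 4 up and 0 to 1 down in females at 9 weeks, 0 to 2 and 1 to 13 down in males at 9 and 15 weeks, and 0 to 13 between the sexes in vehicle. Signs changed for uncalled values. At 9 weeks Col6a1 was 0.22 with the block, 0.16 with the smooth muscle score, 0.29 without 2 vehicle libraries and -0.29 to 0.36 without 1 library, and Col6a2 was 0.27, 0.18, 0.28 and -0.18 to 0.34. At 15 weeks Col18a1 was 0.88 with the fibroblast score, 0.71 with the smooth muscle score, 0.06 without 2 libraries and -0.62 to 0.16 without 1. With the fibroblast score and then the smooth muscle score, Col1a1 was 0.47 and 0.31, Col4a1 0.36 and 0.11, Col5a2 0.72 and 0.22 and Col6a4 0.25 and 0.05, and with the fibroblast score Col1a2 was 0.20 and Col4a2 0.16. Between 15 and 9 weeks with that score Col13a1 was 0.44, Col16a1 0.21, Col6a1 0.02, Col6a2 0.02 and Col8a1 -0.32. Without 1 library Col13a1 ran from -0.03 to 1.19 at 15 weeks and Col20a1 from -0.16 to 0.04 between the times. Chains with r above 0.8 to the smooth muscle score numbered 11 over all libraries, 2 within groups, 22 in vehicle, 0 at 9 weeks and 3 at 15 weeks. The cause of these changes was not tested. The replicate numbers did not pair the mice (75 same-numbered pairs, median correlation of deviations -0.0262, 12 above 0.1, 4 of 30 libraries closest to their own number). Depth limits chains under 1 FPKM.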
